A study of Mus musculus with 47 samples.

Results

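The NZO/HlLtJ mouse, an inbred strain prone to obesity and diabetes, gave 8 gastrocnemius libraries on the control diet, and only some of them held the brown-fat transcript Ucp1. These 8 libraries, of 47 in the whole series, were divided by that transcript. Ucp1 lay at or above 1 CPM (the count divided by the library's total in M, mega, counts) in 3 and below 1 CPM in 5. The levels of Ucp1 thus chose the sides, so what differed between them is described here with no test. Differences were tested only in libraries that the division did not use, or between groups given by the labels.

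Brown adipocytes burn fuel to make heat. Their mitochondria carry UCP1, a protein of the inner membrane that lets protons return without making ATP, and noradrenaline acting on beta-adrenergic receptors switches it on. Skeletal muscle fibres do not normally make Ucp1, although they share with brown fat many genes of mitochondria and fat burning, and fat cells lie between and around muscles.

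The series covers 3 inbred strains (C57BL/6J, CAST/EiJ and NZO/HlLtJ), both sexes and 2 diets, 10% fat+fiber or 44% fat+fiber. All mice were wild type by label and had no other treatment. The diets began at 6 weeks of age and the gastrocnemius, a mostly fast-fibred calf muscle, was taken at 15 weeks. Of the 8 libraries on 10% fat from NZO/HlLtJ, 4 were from females and 4 from males. Ucp1 was present in females 1 and 4 and in male 1, and below the threshold in females 2 and 3 and in males 2, 3 and 4. The comparison groups were 8 NZO/HlLtJ libraries on 44% fat, 15 of CAST/EiJ (7 on 10% and 8 on 44% fat) and 16 of C57BL/6J (8 on each diet). Replicate numbers only name the libraries. Whether they came from separate animals, pooled animals or repeat extractions is not given in the labels, so p-values measure only the spread between these samples.

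Total counts of the 8 libraries lay between 26 and 44.1 M, and female 1, which had the most Ucp1, was the shallowest. Of 20796 deposited genes, 17159 were abundant enough to be used, and the description below covers the 17158 others beside Ucp1. The sample numbers in the titles fall into 3 runs of consecutive numbers. Female 1 and male 1 were in the first run and female 4 in the second, while the libraries without Ucp1 were spread over all 3. The labels do not say what the runs mean. Muscle transcripts dominated every library: the fast myosin Myh4 was at 64488 to 72350 CPM in the 3 libraries with Ucp1 and at 63780 to 73577 CPM in the 5 without.

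A pair of promoter stretches shows the gene that set the division beside a relative that muscle itself uses. Ucp1 and Ucp3, which encodes the uncoupling protein of muscle mitochondria, belong to 1 family. The 250 bases before each start site are given 5′ to 3′ from RefSeq, build GRCm38.p6. The Ucp1 stretch is chr8:83290098-83290347 and the Ucp3 stretch is chr7:100472741-100472990, both on the plus strand. Capitals mark the letters AGGTCA, the core that many nuclear receptors bind, and CGTCA, the core of the cyclic AMP response element, on either strand.

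Ucp1: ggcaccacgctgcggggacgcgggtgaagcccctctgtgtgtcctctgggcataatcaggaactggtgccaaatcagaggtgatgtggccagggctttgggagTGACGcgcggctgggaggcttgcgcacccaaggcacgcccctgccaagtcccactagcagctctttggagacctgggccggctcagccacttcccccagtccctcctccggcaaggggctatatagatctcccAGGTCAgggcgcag
Ucp3: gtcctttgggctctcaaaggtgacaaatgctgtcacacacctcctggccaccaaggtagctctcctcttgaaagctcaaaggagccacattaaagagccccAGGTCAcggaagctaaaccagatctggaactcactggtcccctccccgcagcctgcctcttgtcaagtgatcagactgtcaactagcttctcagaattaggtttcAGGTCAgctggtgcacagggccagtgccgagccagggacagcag

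The Ucp1 stretch held AGGTCA once, starting 14 bases before the start site, and CGTCA once in reverse, starting 147 bases before it. The Ucp3 stretch held AGGTCA at 149 and at 44 bases before the start, and no CGTCA. These words are common. AGGTCA was found on either strand in 14.0% and CGTCA in 17.8% of 32851 RefSeq windows of the same length, so a match describes the letters and is not a binding site. The distant enhancer of Ucp1 lies outside this window.

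Ucp1 (ENSMUSG00000031710, chromosome 8, 83290348 to 83298456, plus strand, positions on GRCm38) was counted at 79.8 CPM in female 1, 20.6 CPM in male 1 and 4.53 CPM in female 4. In the others it was at 0.607 CPM in male 2, 0.250 in male 4, 0.231 in female 2, 0.117 in female 3 and 0.0290 in male 3. These levels rest on 2077, 829 and 200 counts on 1 side and on 1 to 21 counts on the other. The libraries nearest the threshold were female 4 (exact 95% binomial interval 3.93 to 5.21 CPM) and male 2 (0.376 to 0.929 CPM), and the intervals cover counting error only. Within the 3, Ucp1 itself ranged widely, and female 1 had the highest level of all 47 libraries.

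Cidea (ENSMUSG00000024526), a lipid-droplet protein abundant in brown fat, kept the same order. It stood at 25.6, 8.85 and 3.69 CPM in female 1, male 1 and female 4, and at 0.174 to 0.926 CPM in the 5 others. Elovl3 (ENSMUSG00000038754, chromosome 19, 46131897 to 46135307), an enzyme that elongates fatty acids in brown fat, reached 2.57 CPM in female 1 (67 counts). In male 1 it was at 0.198 CPM (8 counts) and in female 4 at 0.227 CPM (10 counts). It was at 0 in 4 of the 5 others, where 3 counts would be 0.0692 to 0.0878 CPM, and at 1 count in male 3. Cidea and Elovl3, the markers beside the one that set the division, were both higher in each of the 3 libraries, though Elovl3 was far above its floor only in female 1.

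**Figure D1:**
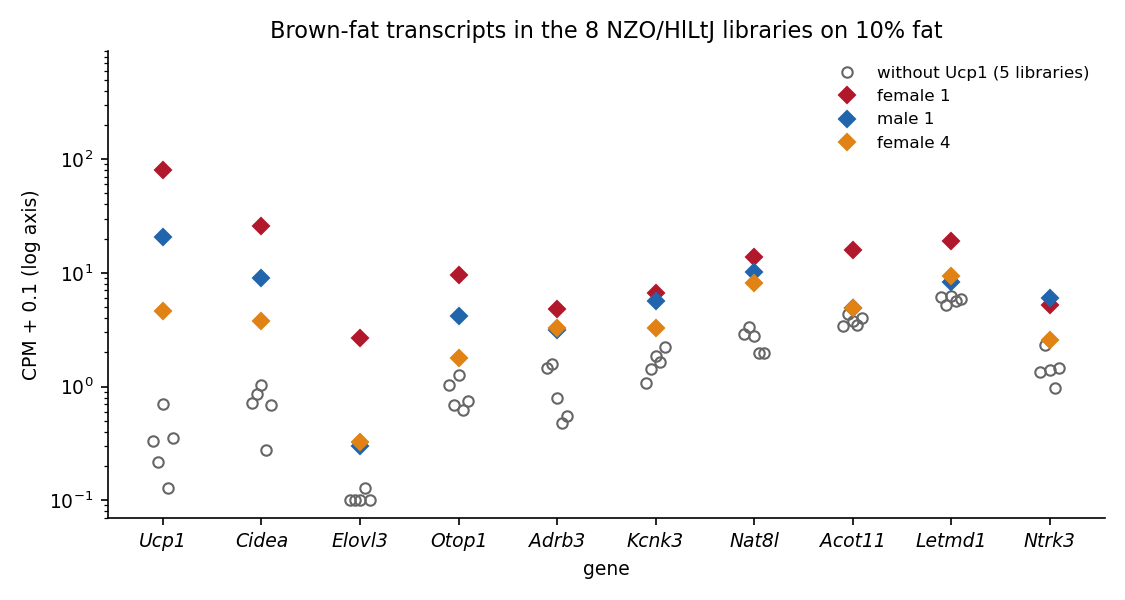
CPM plus 0.1 on a log axis for 10 genes of brown fat (x axis), drawn because their sides did not overlap, in the 8 NZO/HlLtJ libraries on 10% fat; diamonds are the 3 libraries with Ucp1, open circles the 5 without. The 3 diamonds lie above the 5 circles in these 10 by choice (the 7 of 14 brown-fat list members that overlapped are not drawn), with Ucp1 at 79.8, 20.6 and 4.53 CPM and Cidea at 25.6, 8.85 and 3.69 CPM.

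Some genes of brown fat were higher with Ucp1 and others overlapped. Of the 14 other genes on a list that marks brown fat off from muscle, 7 were higher in each of the 3 libraries than in any of the 5, against 7.37% of all genes. None was lower, against 0.868% of all genes. The same 7 were also at least 2-fold higher by their means, against 1.64% of all genes. Because the division used these same libraries, nothing further is read from these counts. The median log2 ratio of the 14 (mean CPM with Ucp1 over mean without, 0.1 CPM added) was 1.05, beside 0.115 over all genes. With TMM scaling, which evens out libraries by their bulk of shared genes, 5 of 14 stood apart (4.14% of all genes higher, 4.02% lower), and Acot11 and Ntrk3 were lost.

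The receptor Adrb3, the beta-adrenergic receptor of fat cells, was at 4.72, 3.03 and 3.19 CPM in female 1, male 1 and female 4, and at 0.377 to 1.49 CPM in the others. Otop1 (chromosome 5, 38275972 to 38304217), a proton channel of brown fat, was at 9.48, 4.04 and 1.70 CPM against 0.522 to 1.16 CPM. Kcnk3 (chromosome 5, 30588170 to 30625271), a potassium channel of brown adipocytes, was at 6.52, 5.58 and 3.17 CPM against 0.968 to 2.12 CPM. Each of these genes was highest in female 1, and no library without Ucp1 reached the lowest library with it.

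Acot11, a thioesterase that splits fatty acyl-CoA, was at 15.7 CPM in female 1 but only at 4.84 and 4.83 CPM in male 1 and female 4, close to the 4.22 CPM of the highest library without Ucp1. Ntrk3, a neurotrophin receptor, was at 5.13, 5.89 and 2.45 CPM against 0.870 to 2.23 CPM. Nat8l, which makes N-acetylaspartate and is expressed in brown fat, was at 13.7, 10.0 and 8.07 CPM against 1.86 to 3.22 CPM. Nat8l was not on the list. It met the rule on size below, but it was named here after its values were seen.

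The other 7 list members overlapped between the sides. Among the regulators of the brown-fat lineage, Prdm16 was at 3.72, 4.37 and 2.65 CPM against 1.49 to 2.90 CPM, and Ebf2 at 8.79, 8.43 and 5.46 CPM against 5.57 to 7.67 CPM. In both, female 4 lay inside the range of the libraries without Ucp1, or below it. Zic1, a transcription factor of classical brown fat, was at 0.806, 0.471 and 0.181 CPM against 0.406 to 0.876 CPM. The thyroid hormone deiodinase Dio2 stood out in female 1 alone, at 5.45 CPM against 1.03 to 2.51 CPM. Aqp7, Lhx8 and Slc27a2 overlapped too. Without female 4, Prdm16, Ebf2 and Aqp7 joined the members that stood apart, which made 10 of 14, against 10.1% of all genes higher and 2.75% lower. With TMM scaling as well it was again 10 of 14, against 7.48% higher and 5.95% lower.

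Genes that brown fat shares with muscle did not follow Ucp1 as a list. Of 16 such genes, 2 were higher in all 3 libraries, against 7.37% of all genes. With TMM scaling it was again 2, against 4.14% of all genes. The median log2 ratio was −0.06 (−0.17 with TMM scaling). Letmd1, a mitochondrial protein needed for heat production in brown fat, was at 18.9, 8.23 and 9.24 CPM against 5.09 to 6.16 CPM. Acsl5, an acyl-CoA synthetase, was at 12.3, 9.92 and 15.7 CPM against 5.73 to 6.97 CPM. Ppargc1a, a coactivator that drives mitochondrial genes, was at 26, 34.5 and 24.9 CPM against 31.3 to 42.8 CPM. Cox8b and Cox7a1, subunits of cytochrome oxidase in muscle and brown fat, overlapped. Among the relatives of Ucp1, Ucp2 was at 12, 20.5 and 49.9 CPM against 9.49 to 18.2 CPM. Ucp3 was at 58.9, 97.5 and 40.0 CPM against 64.0 to 261 CPM, so the sides of both overlapped and only female 4 stood well above the others in Ucp2.

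Respiration and fat burning showed no shift of that size, in a comparison where 7.37% of all genes were higher and 0.868% lower. Of 21 genes of fatty acid oxidation none stood apart in either direction, with a median log2 ratio of 0.04 (−0.07 with TMM scaling). Of 35 subunits of the respiratory chain only Cox6a1 did, at 29.5, 19.8 and 21.5 CPM against 9.46 to 12.9 CPM. Cox6a1 is the form of its subunit that most tissues use in place of the muscle form. With TMM scaling 7 of the 35 subunits were lower in all 3 libraries, against 4.02% of all genes. The median of the 35 went from −0.04 to −0.15. Of 14 genes for cycles of creatine and calcium, which can also make heat, Ryr2 was higher and Slc6a8 and Alpl were lower. With TMM scaling 5 of the 14 were lower, against 4.02% of all genes.

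Transcripts of fat cells in general came along too. Of 24 adipocyte genes, 18 were higher in each library with Ucp1 than in any without and none was lower (7.37% and 0.868% of all genes), with a median log2 ratio of 1.20. With TMM scaling 10 stood apart (4.14% of all genes) and the median was 1.11. Adiponectin, Adipoq (chromosome 16, 23146536 to 23158028), was at 84.4, 103 and 54.7 CPM in female 1, male 1 and female 4 against 31.3 to 44.9 CPM. Its order differs from that of Ucp1, since male 1 was the highest. The droplet coat Plin1 was at 97.6, 124 and 48.7 CPM against 30.2 to 33.9 CPM. Pparg, the master regulator of fat cells, was at 18.2, 14.9 and 6.98 CPM against 4.64 to 6.89 CPM, so female 4 was barely above.

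Leptin, the hormone Lep of white fat, overlapped. It was at 73.7, 151 and 37.3 CPM in the 3 libraries against 17.5 to 71.0 CPM, with male 4 the highest of those without Ucp1. Pck1, which makes glycerol for triglyceride in fat cells, was at 144, 197 and 50.0 CPM against 22.8 to 39.8 CPM. The lipoprotein lipase Lpl overlapped, at 712, 1011 and 570 CPM against 497 to 651 CPM, as did the fat importer Cd36. The hormone-sensitive lipase Lipe did not, at 94.7, 115 and 52.9 CPM against 36 to 48 CPM. In bulk tissue, more fat cells and more of a transcript in each cell cannot be told apart. Fat-cell transcripts also occurred without Ucp1: in the 16 C57BL/6J libraries Adipoq was at 11.8 to 102 CPM while Ucp1 was at 0.629 CPM or less.

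Enzymes that make fatty acids formed another group. Of 17 lipogenic genes, 11 were higher in all 3 libraries and none was lower (7.37% and 0.868% of all genes), with a median log2 ratio of 1.14. With TMM scaling 9 were higher (4.14% of all genes). Fasn (chromosome 11, 120805846 to 120824547), the fatty acid synthase, was at 1322, 467 and 528 CPM in female 1, male 1 and female 4 against 97.9 to 342 CPM. The desaturase Scd1 was at 3631, 1489 and 1482 CPM against 516 to 1216 CPM. Thrsp, a nuclear promoter of lipogenesis, was at 82.9, 23.9 and 39.9 CPM against 5.28 to 22.2 CPM. In each, female 1 was far above, while male 1 was close to the highest library without Ucp1, male 2.

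Acly, which supplies acetyl-CoA, overlapped because male 1 (63.2 CPM) lay under male 2 (64.1 CPM), with 232 CPM in female 1 and 105 CPM in female 4. The regulator Srebf1 was at 72.1, 85.8 and 55.7 CPM against 34.0 to 99.9 CPM. Mlxipl, the glucose-sensing regulator, was at 102, 60.3 and 85 CPM against 57.2 to 83.4 CPM. Both regulators overlapped. The citrate carrier Slc25a1 was at 46.7, 25.1 and 27.6 CPM against 6.47 to 15.5 CPM. The malic enzyme Me1, which supplies NADPH, overlapped at 199, 199.8 and 159 CPM against 144 to 221 CPM.

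**Figure D2:**
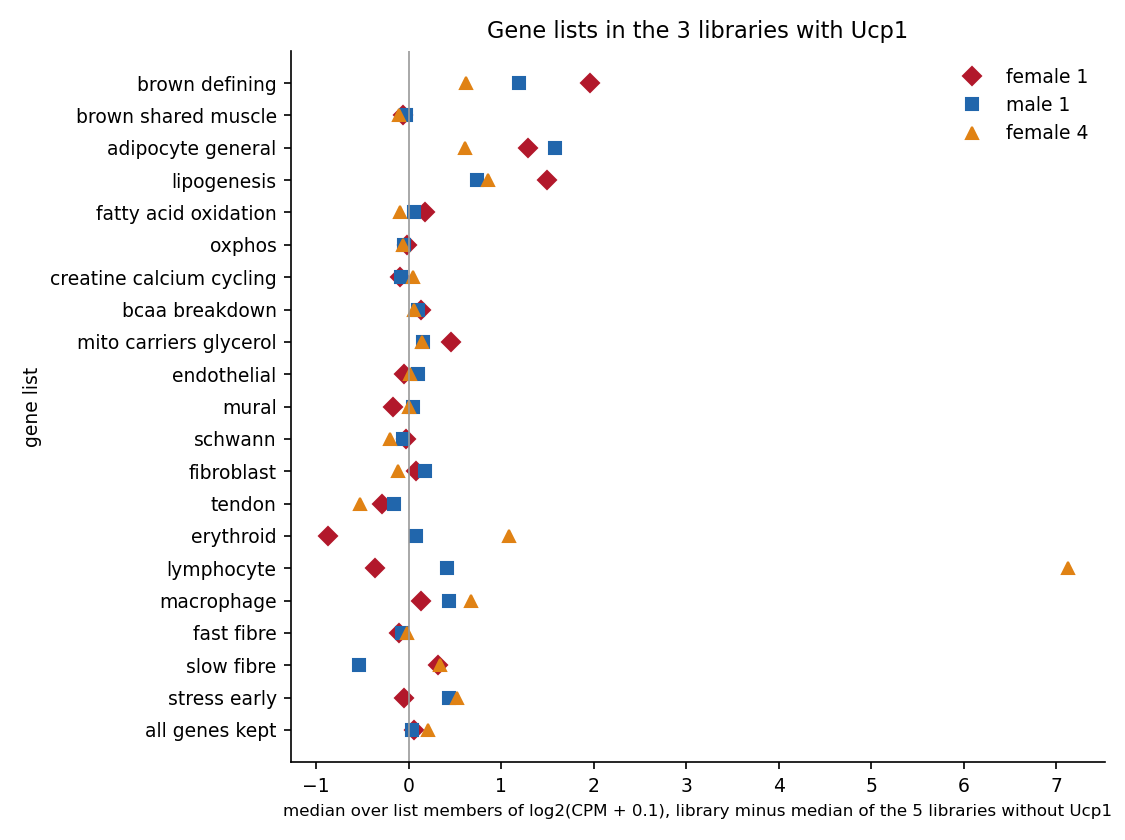
Median over the members of each gene list (y axis) of log2(CPM + 0.1) in a library minus the median of the 5 libraries without Ucp1 (x axis), for the 3 libraries with Ucp1. Female 1 is the highest of the 3 for brown-defining genes (1.96) and lipogenesis (1.49), male 1 for adipocyte genes (1.58) and female 4 for lymphocyte genes (7.13).

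The 3 libraries did not bring the same companions. Genes at 1 CPM or more and at least 2-fold above the highest library without Ucp1 numbered 96 in female 1, 120 in male 1 and 1049 in female 4. Of these, 45, 69 and 1032 were found in that library alone. Female 1 and male 1 shared 45, female 4 shared 11 with each, and 5 were common to all 3. The 5 were Cidea, Nat8l, Acp5 (an acid phosphatase of macrophages and osteoclasts), the chemokine Cxcl9 and the fatty acid hydroxylase Cyp4v3. Acp5 was at 17.5, 18.2 and 17.3 CPM against 4.18 to 6.43 CPM, nearly level over the 3 while Ucp1 was not.

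Past that 2-fold line female 1 had 8 of the 14 brown-fat genes, 10 of 17 lipogenic genes and 9 of 24 adipocyte genes. In this library 96 of 17158 genes were past the line. Among the brown-fat genes, Cidea, Elovl3 and Otop1 had log2 excesses over the median without Ucp1 of 5.15, 4.74 and 3.69. Among genes past the line in female 1 alone and at 5 CPM or more, Thrsp came first (2.93) and Ppp1r3b next (2.84). Ppp1r3b, a glycogen-targeting subunit of protein phosphatase, was at 12.5 CPM against at most 2.52 CPM without Ucp1. Pnpla3, a lipase-like protein induced with lipogenesis, was at 56.3 CPM against at most 23.2 CPM.

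Male 1 had 16 of 24 adipocyte genes, 4 of 14 brown-fat genes and none of the 17 lipogenic genes past the line. For comparison 120 of 17158 genes were past it. By smaller margins 11 of the 17 lipogenic genes were above every library without Ucp1 there, against 3731 of 17158 genes at any margin. Male 1 also held 4 of 12 genes of the immediate early response. Fosb was at 16.2 CPM against at most 1.31 CPM, Fos at 51.4 against 19.6, Egr1 at 42.3 against 11.7 and Junb at 14.9 against 5.18. In females 1 and 4 Fos was at 6.80 and 5.6 CPM, inside the range of the libraries without Ucp1, while Junb at 8.20 CPM in female 4 was above it. The part of this response in the results for male 1 was not tested.

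Female 4 differed most from the rest. All 12 lymphocyte markers were past the line and no adipocyte or lipogenic gene was, with 2 brown-fat genes (Cidea and Adrb3). In this library 1049 of 17158 genes were past the line. Its summed lymphocyte markers were 576 CPM, beside 17.5 and 57.7 CPM in female 1 and male 1 and 12.8 to 56.7 CPM without Ucp1. The B-cell receptor chain Cd79a was at 38.8 CPM against 0 to 0.203 CPM in the 7 other libraries. The T-cell receptor partner Cd3d was at 8.90 CPM and at 0 in the other 7. Red-cell transcripts were high there as well, at a sum of 1062 CPM against 280 to 673 CPM in the other 7 libraries. Macrophage markers summed to 307 CPM against 99.1 to 187 CPM. The part of these cells in the results for female 4 was not tested.

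Scaling changed the count of genes in the comparison. The median log2 difference over all genes was 0.206 in female 4, against 0.0611 in female 1 and 0.0336 in male 1. With counts over totals, 1265 genes were higher and 149 lower without overlap. With TMM scaling the split was 710 higher and 689 lower, and with median-of-ratios factors 706 and 707 (4.11% and 4.12%). The TMM scale moved the median over all genes from 0.115 to 0.0076. On each of the 3 scales, members of the brown-fat, adipocyte and lipogenic lists stood apart upward in this comparison of 3 with 5, and none downward.

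Beyond the lists, the 15 genes with the largest ratios were mostly led by female 4. Ms4a4b of lymphocytes was at 20.5 CPM there, at 0.192 and 0.248 CPM in female 1 and male 1, and at 0 to 0.0835 CPM in the others. Psd4, Hvcn1, Wdfy4, H2-Ab1, Selplg, Ptk2b, Ltbp2, Ikbke, Nlrc5 and Kbtbd11 had their highest level in that library as well. H2-Ab1, a chain of a class II antigen-presenting molecule, was at 65.5 CPM there and at 5.03 and 6.87 CPM in the other 2, against 3.04 to 4.87 CPM. The remaining 4 were Cidea, Otop1, Pck1 and Nat8l, which were lowest in female 4.

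Genes were also ranked by how closely they followed Ucp1 over the 8 libraries, as the SD of the log2 difference to Ucp1, among genes with a mean of at least 0.5 CPM. Cidea was nearest, at an SD of 1.25. After it came Otop1 (2.03), Gys2, a glycogen synthase of liver and fat (2.16), Fasn (2.27), the ferroxidase Hephl1 (2.31), Thrsp (2.32), Nat8l (2.35), Arxes2 (2.36), Elovl6 (2.36) and A530053G22Rik (2.40). Gys2 was at 4.42, 3 and 1.09 CPM against 0.203 to 0.868 CPM. A530053G22Rik overlapped between the sides. Genes that scarcely differed between the sides had larger SDs, such as Cox7a1 (3.42) and Cpt1b (3.46). This order is a description of 8 libraries that share a strain and a diet. Elovl3, below that mean, had an SD of 2.04.

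Cidea did not fall as fast as Ucp1. Cidea counts per count of Ucp1 were 0.321 in female 1, 0.431 in male 1 and 0.815 in female 4. Over the 15 CAST/EiJ libraries the same quotient ran from 0.263 to 1.55, with a median of 0.385. For Fasn the quotient was 16.6, 22.7 and 116, and in CAST/EiJ it ran from 10.9 to 247. For leptin it was 0.923, 7.34 and 8.22, and in CAST/EiJ it had a median of 0.378 and a range of 0.127 to 9.50. The 3 NZO/HlLtJ libraries lay inside the CAST/EiJ range for these genes, but not for all 11 compared. Female 1 was below it for Kcnk3 (0.0818 against a lowest 0.131) and Adrb3 (0.0592 against 0.130). For Acot11 female 1 (0.197) and male 1 (0.235) were below the lowest 0.368.

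By counts over totals few genes were lower (0.868%), while with TMM scaling nearly as many were lower (689, 4.02%) as higher (710, 4.14%). Among genes with a mean of at least 5 CPM without Ucp1, the 10 with the largest ratios downward lay from −0.62 to −0.33 on the log2 scale. Of these, 5 are matrix genes of tendon and cartilage. Comp, a matrix protein of tendon, was at 20.8, 22.7 and 20 CPM against 26.8 to 36.9 CPM. Chad, a leucine-rich matrix protein, was at 29.1, 31.6 and 30.4 CPM against 35.6 to 48.5 CPM. Col11a1, Cilp2 and Col22a1 behaved likewise. Of 7 tendon markers, Comp and Fmod were lower in all 3 (0.868% of all genes), and with TMM scaling 4 were (4.02%). Of 12 fast-fibre genes none stood apart with counts over totals and 7 were lower with TMM scaling (4.02% of all genes).

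None of 12 endothelial, 12 fibroblast or 10 macrophage markers stood apart in the comparison of 3 with 5. There 7.37% of all genes were higher and 0.868% lower. Of 9 mural markers only Cspg4 was higher, and of 11 Schwann-cell markers only Prx was lower. Within the first identifier run, where female 1 and male 1 faced female 2 and male 2, 11 of 14 brown-fat, 22 of 24 adipocyte and 11 of 17 lipogenic genes were higher without overlap. So were 7 of 21 genes of fatty acid oxidation (0 lower) and 10 of 19 of branched-chain amino acid breakdown (1 lower). Of other cells, 8 of 10 macrophage, 5 of 12 fibroblast and 3 of 12 endothelial markers were higher, and 0 of 12 lymphocyte markers. There 20.9% of all genes were higher and 10.6% lower. The part of these other cells in the result was not tested. In the second run 1 library faced 1, and the third held only libraries without Ucp1.

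Whether the same genes rise with Ucp1 elsewhere was tested in CAST/EiJ, a strain derived from wild mice, whose 15 libraries played no part in the division. There Ucp1 was at 1.34 to 69.5 CPM, with all 15 at or above 1 CPM. The slope of each gene on log2 of Ucp1 (CPM + 0.1) was fitted with terms for sex and diet groups, so a slope of 1 means that a gene doubles when Ucp1 does. By edgeR's quasi-likelihood test 52 genes rose with Ucp1 and 19 fell at an adjusted p under 0.05 (0.303% and 0.111% of 17158, 0.414% together), and 3027 had an unadjusted p under 0.05.

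Of the 14 brown-fat genes 4 rose and none fell. Cidea rose with a slope of 0.64 ± 0.06 (SE, edgeR adjusted p = 0.000199, 15 libraries). Kcnk3 rose with 0.37 ± 0.04 and Otop1 with 0.52 ± 0.06 (edgeR adjusted p = 0.0021 each). Elovl3 rose with 0.66 ± 0.11 (edgeR adjusted p = 0.0313). The 10 others did not pass, among them Adrb3 (0.14 ± 0.08, edgeR adjusted p = 0.424) and Acot11 (0.10 ± 0.05, edgeR adjusted p = 0.33). The slope of Ntrk3 was −0.01 ± 0.04 (edgeR adjusted p = 0.97), although Ntrk3 had stood apart in NZO/HlLtJ.

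Fat and lipogenic genes leaned the same way in CAST/EiJ but seldom passed. Of 24 adipocyte genes all 24 slopes were above 0, with a median of 0.14, and only Plin4 passed (0.12 ± 0.02, edgeR adjusted p = 0.0492). Adipoq had a slope of 0.13 ± 0.05 (edgeR adjusted p = 0.209). Of 17 lipogenic genes 16 slopes were above 0, with a median of 0.27, and Fasn (0.33 ± 0.05, edgeR adjusted p = 0.0245) and G6pdx (0.28 ± 0.06, edgeR adjusted p = 0.0492) passed. Among the genes shared with muscle Letmd1 rose (0.22 ± 0.04, edgeR adjusted p = 0.0454), and of the respiratory chain Cox6a1 alone (0.18 ± 0.03, edgeR adjusted p = 0.0492). Outside the lists Cyp2b10, a cytochrome P450, rose with 0.63 ± 0.08 (edgeR adjusted p = 0.00518).

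Of the 52 genes that rose in CAST/EiJ, 28 (53.8%) were among the 1265 higher without overlap in NZO/HlLtJ, beside 7.37% of all genes. The 28 are 2.21% of the 1265, which were taken by counts over totals. With TMM scaling 4.14% of all genes were higher, and the overlap was not counted on that scale. Over the 1265 genes 73.3% of CAST/EiJ slopes were above 0, beside 49.9% over all genes. By slopes fitted alike, the share was 83.6% in C57BL/6J (49.5% over all genes). In NZO/HlLtJ on 44% fat it was 40.8%, below the 49.2% over all genes. Of the 12 lymphocyte markers 11 had slopes above 0 in CAST/EiJ, with a median of 0.57 and none passing, and all 10 macrophage markers were above 0. In NZO/HlLtJ no lymphocyte marker was higher in all 3 libraries, and the excess lay in female 4. The part of these cells in the slopes was not tested beyond the fit that follows.

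With the mean lymphocyte level in the fit, 1 gene was called, Cidea, and the adjusted p of Kcnk3 and of Otop1 became 0.0613 in edgeR. With the identifier run in the fit 3 were called, Cidea, Kcnk3 and Otop1. With Adipoq in the fit 8 were, and Cidea, Kcnk3 and Otop1 were among them. These covariates were chosen with the data in view, except the run. Cidea passed in all 23 alternatives, Kcnk3 and Otop1 in 22, and Elovl3 in 13. Fasn passed in 17, Plin4 in 9, Cox6a1 in 8, Letmd1 in 7 and G6pdx in 6.

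**Figure D3:**
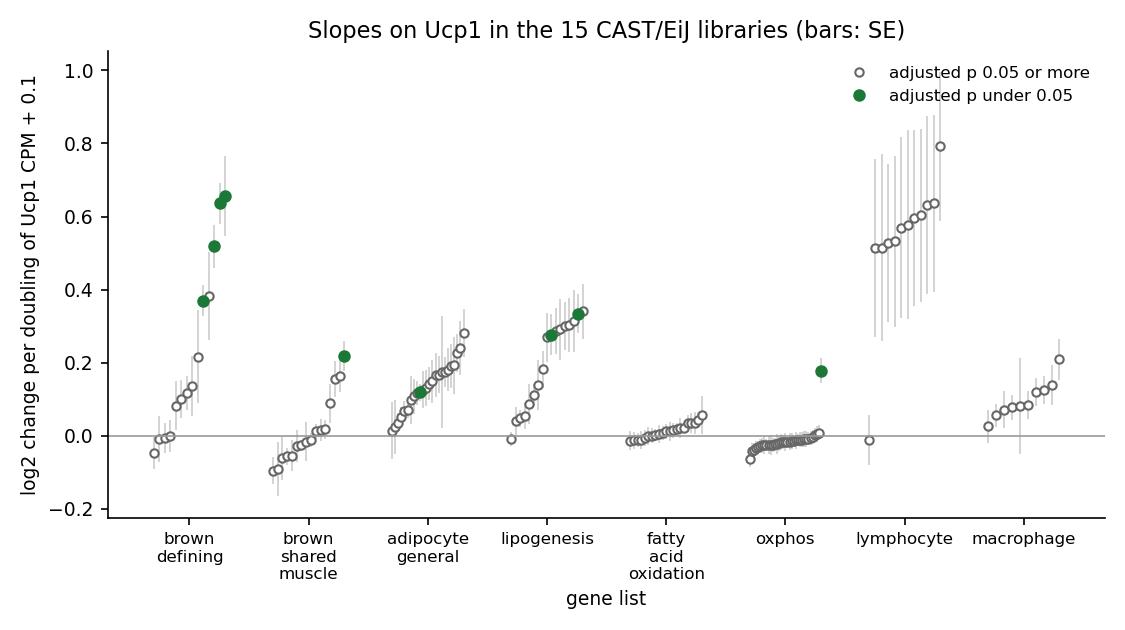
Fitted log2 change per doubling of Ucp1 (y axis, bars SE) of each member of 8 gene lists (x axis) over the 15 CAST/EiJ libraries; filled points passed an adjusted p of 0.05. Filled points are 4 of 14 brown-defining genes, 2 of 17 lipogenic and 1 of 24 adipocyte genes, while the lymphocyte markers lie at a median of 0.57 with wide errors and none filled.

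In C57BL/6J, where Ucp1 stayed at 0 to 0.629 CPM, 3 genes passed (0.0175% of 17158), all rising, and 2128 had an unadjusted p under 0.05. They included Pank3, which makes coenzyme A (0.18 ± 0.02, edgeR adjusted p = 0.0347), and Pnpla3 (0.53 ± 0.08, edgeR adjusted p = 0.0487). No brown-fat list member passed, and Cidea had a slope of 0.38 ± 0.15 (edgeR adjusted p = 0.368). Of the adipocyte genes 23 of 24 slopes were above 0, with a median of 0.38, and none passed.

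In the NZO/HlLtJ libraries on 44% fat, with Ucp1 at 0 to 0.957 CPM, edgeR called no gene, 536 had an unadjusted p under 0.05, and DESeq2 called 10. Cidea had a slope of 0.61 ± 0.15 (edgeR adjusted p = 1, unadjusted p = 0.00209). The adipocyte median was −0.13 and the lipogenic median −0.10, with none passing. Differences between the slopes of the strains were not tested.

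**Figure D4:**
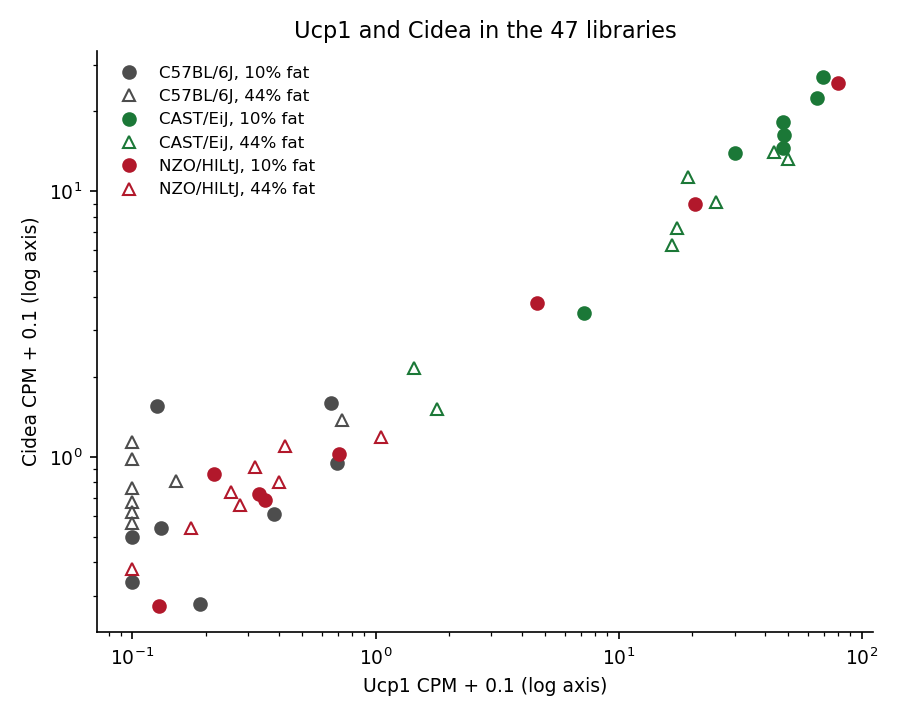
Cidea against Ucp1 (CPM plus 0.1, both axes log) in the 47 libraries, by strain and diet. The 3 NZO/HlLtJ libraries with Ucp1 (Cidea 25.6, 8.85 and 3.69 CPM) lie among those of CAST/EiJ, and the other NZO/HlLtJ libraries lie with C57BL/6J at Cidea of 1.49 CPM or less.

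None of the 8 NZO/HlLtJ libraries on 44% fat reached 1 CPM of Ucp1, so the diet comparison was read with and without the 3 libraries. The fit held all 47 libraries of the series, so its spread came from the other strains as well. Between the 8 NZO/HlLtJ libraries on each diet, edgeR called 42 genes higher and 28 lower on 44% fat (0.245% and 0.163% of 17159, 0.408% together). An unadjusted p under 0.05 was found for 2224 genes. Ucp1 fell by 5.11 ± 1.17 on the log2 scale (SE, edgeR adjusted p = 0.0353, n = 8 and 8). Ntrk3 fell by 1.12 ± 0.26 (edgeR adjusted p = 0.0379). Of 22 alternatives Ucp1 passed in 12 and Ntrk3 in 10, and neither passed with NZO/HlLtJ libraries only. The Ucp1 values on 10% fat are those that set the division. The 5 libraries below 1 CPM there (0.0290 to 0.607 CPM) lay within the range on 44% fat (0 to 0.957 CPM). Cidea had a difference of −2.52 ± 0.67 (edgeR adjusted p = 0.0737) and Adrb3 of −2.29 ± 0.58 (edgeR adjusted p = 0.0631).

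Refitted without the 3 libraries, 5 against 8, the diet comparison held 3 genes (0.0175% of 17159). These were Phlda3, Slc6a17 and Hist1h2be, all called before as well. The libraries left out were chosen by Ucp1, so the refit is a description, and its values for Ucp1 and for the genes that were high with it follow from the choice. Ucp1 went to 0.15 ± 1.30 (edgeR adjusted p = 1). Cidea went to 0.15 ± 0.55 (edgeR adjusted p = 0.997) and Ntrk3 to −0.35 ± 0.19 (edgeR adjusted p = 0.697). The median over the 14 brown-fat genes went from −0.68 to 0.13, over the adipocyte genes from −0.33 to 0.14, and over the lipogenic genes from −0.39 to −0.03. The lymphocyte median went from −3.57 to 0.19.

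Fat-burning genes moved less. Ech1, an enzyme of fatty acid oxidation, rose by 0.49 ± 0.09 (edgeR adjusted p = 0.00862) with all libraries. It had a difference of 0.42 ± 0.10 (edgeR adjusted p = 0.107) without the 3. Acadl, an acyl-CoA dehydrogenase, rose by 0.53 ± 0.11 (edgeR adjusted p = 0.022), and was at 0.42 ± 0.13 (edgeR adjusted p = 0.314) without them. The median over 21 oxidation genes was 0.23 and then 0.18. The second fit has fewer libraries.

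**Figure D5:**
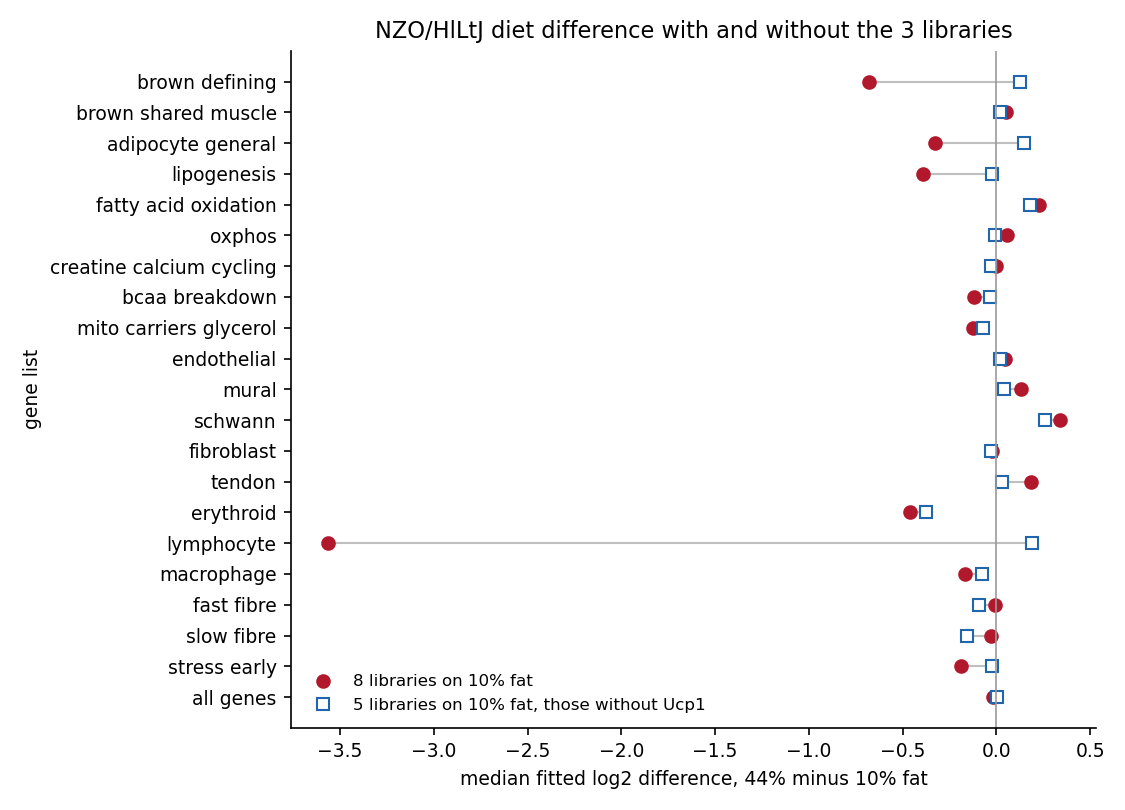
Median fitted log2 difference between 44% and 10% fat in NZO/HlLtJ (x axis) for each gene list (y axis), with all 8 libraries on 10% fat (filled circles) and with the 5 without Ucp1 (open squares). The brown-defining list goes from −0.68 to 0.13 and the lymphocyte list from −3.57 to 0.19, while fatty acid oxidation stays at 0.23 and 0.18.

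The sex comparison on 10% fat holds 2 of the 3 libraries among its 4 females and 1 among its 4 males. By edgeR 188 genes were higher and 349 lower in females (1.1% and 2.03% of 17159, 3.13% together). Without the 3 libraries 144 were called (0.839% of 17159), 135 of them in both fits. That refit sets only females 2 and 3 against males 2, 3 and 4. Its libraries were chosen by Ucp1, so the refit is a description. Its values for Ucp1 and for the genes that were high with it follow from the choice. No brown-fat or adipocyte gene passed in either fit. Ucp1 had a difference of 1.89 ± 1.12 (edgeR adjusted p = 0.406). The lipogenic median was 0.50 with all libraries and −0.24 without the 3, and the lymphocyte median was 5.93 and then −0.69. In females against males Srebf1 was lower, at −0.84 ± 0.18 (edgeR adjusted p = 0.00306), and Mlxipl was higher, at 0.50 ± 0.11 (edgeR adjusted p = 0.00514). Without the 3 libraries they were at −1.08 ± 0.23 (edgeR adjusted p = 0.00882) and 0.46 ± 0.14 (edgeR adjusted p = 0.114).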

How the data were processed

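Poly(A) RNA of gastrocnemius was sequenced as 100 bp pairs, per the labels. The authors deposited estimated counts per gene and library, unscaled, for 20796 genes, of which 81.2% of values were whole to within 1e-06. The submitters' processing notes name GRCm38 and DESeq2. For aligner, quantifier and annotation release, nothing is given in those notes or the labels. The deposited gene table gives start and end, and the deposited variance-stabilized values were not used. Every deposited gene is above 0 in at least 24 libraries. Total counts per library ranged from 26 to 84.8 M, and 3 counts equal 0.068 to 0.115 CPM in the 8 libraries.

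CPM are counts divided by the library total in M counts. Counts were rounded to whole numbers and fitted in R 4.3.3 with edgeR 4.0.16 (quasi-likelihood test, TMM factors, filterByExpr, Benjamini-Hochberg over all genes, threshold 0.05), and the fits were tested on simulated data. Slopes used group terms and log2 of Ucp1 CPM plus 0.1. Diet and sex used all 47 libraries with 12 groups and the identifier run. DESeq2 1.42.0, limma 3.58.1, other scalings, thresholds and left-out libraries were alternatives. Of 12 pairs of replicates among the 8 libraries, chi-squared over degrees of freedom was 13.9 to 76.2, so none looked like a repeat deposit of another.

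The members, the 21 gene lists and the tests were chosen with earlier results of these data known. Genes named beyond the lists are, among those without overlap, the 15 with the largest ratios upward and the 10 downward (mean of at least 5 CPM on the higher side), the 10 nearest to Ucp1, and up to 8 called slopes in each direction. Nat8l, Acp5, Cxcl9, Cyp4v3, Ppp1r3b, Cr2, Pax5 and Marco were named after their values were seen.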

Additional observations from a re-analysis of the deposited data

Results flagged for a closer look

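In groups of 4 NZO/HlLtJ libraries, the highest or lowest library was compared with its neighbours by Dixon's gap test at the 95% level. Chance sets apart about 1 in 20 groups, and 13 of 92 were set apart (23 quantities in 4 groups each, many of them made of overlapping measures). The 13 cannot be set against that rate, because some of them follow from the division by Ucp1.

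The division had used the libraries on 10% fat by their Ucp1. Their gaps in Ucp1, in the genes that go with it and in the brown-fat sum, which contains Ucp1, therefore restate it and are given as values only. On 10% fat, female 1 stood apart from the other 3 females in Ucp1 (79.8 CPM), Cidea (25.6 CPM), Elovl3 (2.57 CPM) and the summed brown-fat list (185 CPM). Male 1 stood apart from the other 3 males in the same quantities, at 20.6, 8.85, 0.198 and 85.6 CPM. Female 4 stood apart in its summed lymphocyte markers (576 CPM). Male 2 stood apart in its summed Schwann-cell markers, at 173 CPM against 90.0 to 98.2 CPM.

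On 44% fat, female 2 and male 3 stood apart in summed adipocyte markers, at 5315 and 5337 CPM. Male 2 was the only male there with any Elovl3, at 0.101 CPM. Because the other males were at 0, any count would have stood apart. In the libraries on 10% fat 3 counts equal 0.068 to 0.115 CPM, so this level is near the floor.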

How the results depend on the processing

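Counts of genes without overlap depended on each choice. They were 1265 higher and 149 lower, and 710 and 689 with TMM scaling or 706 and 707 with median-of-ratios factors. With Ucp1 at or above 5 CPM they were 789 and 361, and with 0.5 CPM 517 were higher. Among males alone they were 5612 and 3042, and among females alone 4950 and 1784, where fewer libraries separate more easily. Leaving out each library gave 1473 to 3052 higher and 206 to 597 lower, with 2314 and 291 without female 1 and 3052 and 597 without male 1. The lower count was also 471 without female 4, 340 without female 3 and 288 without male 2. The medians of the brown-fat, adipocyte and lipogenic lists stayed above 0 under every setting tried.

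In CAST/EiJ 71 genes were called in edgeR, against 763 with DESeq2, 29 with limma-trend, 39 with no filter on low counts, 3 with the run, 1 with the lymphocyte level and 8 with Adipoq. Leaving out each library gave 3 to 399. The counts for females on 10% fat were 4, 35, 13 and 23 without replicates 1 to 4, and on 44% fat 399, 5, 3 and 15. For males they were 16, 26 and 40 without replicates 1 to 3 on 10% fat, and 31, 247, 76 and 46 without replicates 1 to 4 on 44% fat. In C57BL/6J the 3 calls became 184 with DESeq2, 0 with limma-trend, with the run or with Adipoq, and 8 with 0.5 CPM added to Ucp1. Leaving out libraries gave 0 to 22 there. In NZO/HlLtJ on 44% fat the 0 calls became 10 with DESeq2, 1 with the lymphocyte level and 4 with Adipoq, and 0 to 2 with a library left out.

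The 70 diet calls became 228 with DESeq2, 2 with NZO/HlLtJ libraries only, 3 without the libraries with Ucp1 and 19 to 203 with 1 library left out. They were 40, 160, 103 and 31 without females 1 to 4 on 10% fat, and 32, 48, 46 and 74 without males 1 to 4. They were 79, 57, 46 and 28 without females 1 to 4 on 44% fat, and 24, 112, 203 and 19 without males 1 to 4. The diet difference of Ucp1 turned to 0.15 without the libraries with Ucp1. The 537 sex calls became 857 with DESeq2, 123 with NZO/HlLtJ libraries only, 144 without the libraries with Ucp1 and 337 to 601 with 1 library left out, the lowest without female 4. The cause was not tested where fewer samples do not give it. The lymphocyte and Adipoq covariates and the counts per list under other scalings, without female 4 and within the first run were chosen after seeing the data. No paired analysis was possible because replicate numbers were given in accession order and pair nothing.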

Other observations

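Female 4 carried more than lymphocyte markers. Among the largest excesses over the libraries without Ucp1 were genes of B cells and of lymphoid tissue: the immunoglobulin genes Igkc (87.0 CPM) and Ighd (71.7 CPM), the complement receptor Cr2 (29.3 CPM), the B-cell regulator Pax5 (32.1 CPM) and the scavenger receptor Marco (28.1 CPM). None of these was above 0.232 CPM in any library without Ucp1. For the genes past the 2-fold line in each library, the excess over the median without Ucp1 was summed. It was 1.33% of the counts in female 4 (1049 genes), 0.616% in female 1 (96 genes) and 0.261% in male 1 (120 genes).

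Branched-chain amino acid breakdown, which brown fat can use as fuel, shifted little. Of 19 genes, Mccc1, Mccc2 and Pccb were higher in all 3 libraries with Ucp1 by counts over totals, none with TMM scaling. All genes were at 7.37% and 4.14%. Without female 4, 6 of the 19 were higher (4 with TMM scaling), against 10.1% and 7.48% of all genes. In the first identifier run 10 were higher and 1 lower, against 20.9% and 10.6% of all genes. With TMM scaling there 8 were higher and 2 lower, against 17% and 16.6%. Among carriers and glycerol genes, the dicarboxylate carrier Slc25a10 was at 14.7, 19.4 and 15.4 CPM in female 1, male 1 and female 4 against 5.97 to 11.6 CPM, and Pfkl, the liver form of phosphofructokinase, at 33.2, 20.4 and 19.7 CPM against 8.59 to 11.0 CPM.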
